A study of Mus musculus with 9 samples.

Results

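The STAT and SOCS family was followed in mouse CD4+ T cells as 9 genes: the transcription factor genes Stat3, Stat4, Stat5a, Stat5b and Stat6, and the inhibitor genes Socs1, Socs2, Socs3 and Cish. Each was found by its symbol among the RefSeq transcripts of the deposited table, and the transcript row with the highest total stood for the gene, which gave all 9 of the 25160 genes in the table. The study stimulated naive CD4+ T cells, sorted from spleens of C57BL/6 mice, with plate-bound antibody to CD3e (1 µg/ml), a part of the T cell receptor complex. A second antibody was bound to the plates at 19 µg/ml. In the first group wild-type cells met an isotype control antibody, in the second wild-type cells met an antibody against CD40L, the ligand that activated helper T cells use to signal to CD40 on other cells, and in the third cells from mice lacking CD40L in their T cells met the isotype antibody. The third group is titled KO and carries the genotype label cre, and no group of such cells met the CD40L antibody. Each group has 3 libraries, while the Cre driver, the age of the mice and the length of the culture remain not given in the sources used here. The labels do not tie the libraries to separate animals or cultures, so the spread behind the p-values below may be technical.

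STAT proteins wait in the cytoplasm until a cytokine binds its receptor, whose attached Janus kinases then phosphorylate them on tyrosine. The phosphorylated proteins pair through their SH2 domains, enter the nucleus and bind DNA at palindromic sites. In CD4+ T cells STAT5 carries the signals of IL-2 and IL-7, STAT6 those of IL-4, STAT4 those of IL-12, and STAT3 those of IL-6, IL-21 and the IL-6 family. CIS, the product of Cish, and the SOCS proteins are induced by these same signals, and they act back on receptors and kinases to limit them.

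Total counts over genes ranged from 5316482 to 15565711 per library. Anti-CD40L replicate 3 had the smallest total and lay far from the other 8 on principal component 1 (86.96, others from -19.1 to 10.22), so its values are named where a result rests on it. Cd40lg, the gene deleted by design, lay between 136 and 150 CPM in the libraries labelled KO and between 142 and 189 CPM in wild-type isotype libraries (CPM is the usual measure of counts relative to library size, here with TMM scaling). These ranges overlap, so no clear loss of Cd40lg RNA is seen in the libraries labelled KO. The table gives counts per transcript and not per exon. The deletion itself was not tested, and directions below rest on the label KO. The 9 measured CD4 T cell markers summed to 5015 to 5620 CPM in every library. The 11 B cell markers summed to 25.0 to 58.7 CPM (wild-type isotype), 18.7 to 27.2 CPM (anti-CD40L) and 15.3 to 43.1 CPM (KO-labelled), and 3 of 9 tested ones were called lower on anti-CD40L than on isotype. The 9 markers of monocytes, macrophages and neutrophils summed to 7.69 to 8.36, 2.69 to 6.11 and 5.12 to 17.7 CPM in the same order, 2 of 3 tested ones were called lower, and S100a8 and S100a9 were at 0 in both wild-type groups. Natural killer markers summed to 10.5 to 30.7, 4.97 to 19.5 and 12.8 to 19.9 CPM, and CD8 T cell markers to 7.32 to 11.1, 6.27 to 10.5 and 7.61 to 11.9 CPM. Dendritic and erythroid markers summed to at most 3.45 CPM in any library. The part of such cells in the results below was not tested. Fewer cells of a type and less RNA per cell cannot be told apart in these bulk samples.

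The DNA sites of STAT proteins were looked for beside the members' start sites, because Cish and the SOCS genes are textbook STAT targets. RefSeq windows of 300 bases (GRCm38.p6, 250 before and 50 after a start) were found for 8 of the 9 members, 11 windows in all. They were searched for TTCNNNGAA, the spacing that STAT3 and STAT5 dimers bind, and for TTC and GAA with 4 free bases between them, the wider spacing that STAT6 also binds. Both patterns read the same on either strand. Cish held TTCNNNGAA in 2 copies, separated by 2 bases, the first beginning on the RefSeq start base. Socs3 held 1 copy, beginning 154 bases before the RefSeq start used for its window. The RefSeq gene spans of Socs3, Stat3, Stat4, Stat5a, Stat5b and Stat6 reach farther upstream than these starts, so the Socs3 copy lies inside its gene span (117966079 to 117970336). The other 9 windows held neither pattern. The sites are shown with the fixed letters of each match in capitals, read 5′ to 3′ on the gene's strand. Cish lies at chr9:107296654-107296683 on the plus strand and Socs3 at chr11:117969502-117969531 on the minus strand.
Cish: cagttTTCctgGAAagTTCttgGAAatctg
Socs3: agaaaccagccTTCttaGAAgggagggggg
Of all 32851 such windows 8.3% held TTCNNNGAA at least once, 0.457% held it 2 or more times, and 6.95% held the wider pattern. A match describes the letters only and does not show that a factor binds there.

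The members spanned a wide range of levels. Per kilobase of transcript in wild-type isotype cells, Stat6 stood highest at 103 ± 3.26 CPM per kilobase (SD, n = 3 here and below). Stat3 followed at 63.6 ± 3.81, Stat4 at 41.1 ± 4.19, Stat5a at 40.9 ± 6.15 and Stat5b at 35.2 ± 3.44 CPM per kilobase. Stat4 and Stat5a overlapped, as did Stat5a and Stat5b. All 5 STAT genes stood above the inhibitors, of which Cish was at 11.3 ± 3.7, Socs1 at 7.0 ± 0.228, Socs3 at 4.67 ± 1.54 and Socs2 at 0.198 ± 0.143 CPM per kilobase, with no overlap between neighbours. Lengths came from the GENCODE transcript paired with each row. With the longest annotated transcript instead, Stat3 dropped to 30.8 CPM per kilobase, the lowest of the STAT genes, and Cish to 6.87, beside Socs1 at 7.0. The RefSeq span of Socs1 is 1729 bases against 2908 for its paired transcript, so its level per kilobase may be understated. On anti-CD40L, Stat5b was at 23.7 ± 1.76 and Cish at 19.9 ± 2.08 CPM per kilobase, with Cish below Stat5b in every library (17.5 to 21.3 against 22.3 to 25.7). They were neighbours in the order of members there, as in wild-type isotype cells (35.2 and 11.3). With the longest annotated transcripts the anti-CD40L means were 23.0 for Stat5b and 12.1 for Cish.

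**Figure D1:**
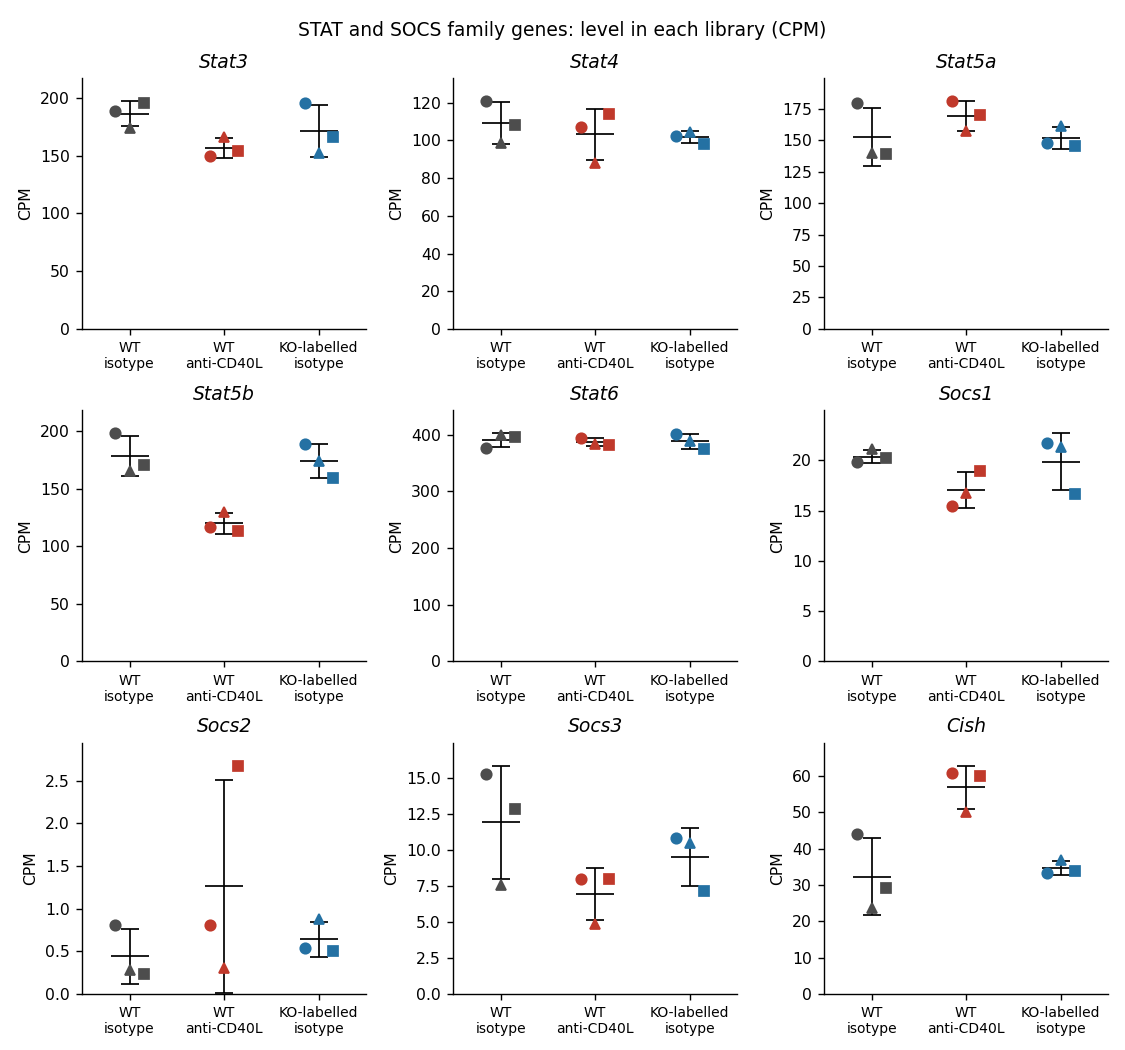
Level of each of the 9 members in each library, in CPM, by group (circle, triangle and square are replicates 1, 2 and 3, the long bar the mean and the whiskers the SD). Stat5b sits lower and Cish higher in the 3 anti-CD40L libraries than in the other 6, while Stat6 stays between 374.4 and 401.4 CPM in all 9.

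The first comparison asks what binding CD40L does to the family in wild-type cells. Stat5b fell and Cish rose, and the other 6 tested members did not pass the threshold. That is 2 of 8 tested members, beside 9.37% of all 11256 tested genes, with 2.91% of genes called higher and 6.46% lower. Median log2 fold change was -0.17 over the tested members and -0.01 over all tested genes. Unadjusted p was under 0.05 for 4 of 8 members (Stat3, Stat5b, Socs3 and Cish), beside 26.4% of all tested genes. The groups did not overlap for Cish, which was higher, nor for Stat3, Stat5b and Socs1, which were lower, 4 of 8 members, beside 32.6% of all tested genes (15.4% higher and 17.2% lower). Socs2 had too few counts for the test.

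Stat5b, which encodes one of the pair of STAT5 proteins, had 198.2, 165.7 and 171.0 CPM in wild-type isotype replicates 1 to 3 and 117.1, 130.0 and 112.9 CPM in anti-CD40L replicates 1 to 3. All 3 anti-CD40L libraries lay below all 3 isotype libraries. The level went from 178.3 ± 17.4 to 120.0 ± 8.91 CPM, to 67.4% of its isotype level (log2 fold change -0.57, SE 0.10; edgeR quasi-likelihood F test, p adjusted by Benjamini-Hochberg over all tested genes here and below, adjusted p = 0.00286). It was called in each of the 18 alternative fits, with adjusted p from 1.84e-06 to 0.0216 (edgeR, DESeq2 or limma), and without anti-CD40L replicate 3 its log2 fold change was -0.52 (edgeR, adjusted p = 0.011). Its neighbour and near copy Stat5a was not called. Stat5a was at 179.3, 139.8 and 139.1 CPM in isotype and at 181.0, 157.2 and 169.7 CPM in anti-CD40L libraries, and the groups overlapped. Its log2 fold change was 0.15, with a 95% interval of -0.08 to 0.37 (edgeR, adjusted p = 0.393).

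Stat5b, Stat5a and Stat3 form a row on chromosome 11 (GRCm38). As RefSeq gene spans, Stat5b covers 100780731 to 100859004, Stat5a 100859351 to 100885169 and Stat3 100886806 to 100939594, with 346 bases between the first pair and 1636 between the second. Stat3, the IL-6 and IL-21 transducer, was at 188.9, 174.1 and 195.9 CPM in isotype and at 149.3, 166.0 and 154.2 CPM in anti-CD40L libraries. All anti-CD40L values were below the isotype values, yet the difference missed the threshold (log2 fold change -0.25, 95% interval -0.46 to -0.04; edgeR, adjusted p = 0.122, and 0.0831 to 0.318 over the alternatives). The 3 genes of the row thus had log2 fold changes of -0.57, 0.15 and -0.25. How reads that match both STAT5 genes were counted remains not given in the sources used here. Of the 50-base windows of the Stat5a transcript 16.5% also occur in Stat5b, and 12.1% of those of Stat5b occur in Stat5a, so part of either count could belong to the other gene.

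Stat6, the IL-4 transducer and the most abundant member, was at 376.0, 398.7 and 395.6 CPM in isotype and at 394.6, 384.3 and 382.4 CPM in anti-CD40L libraries. Its interval was narrow, with a log2 fold change of -0.01 and a 95% interval of -0.16 to 0.14 (edgeR, adjusted p = 0.94). Stat4, the IL-12 transducer, was at 121.0, 98.71 and 108.2 CPM in isotype and at 107.2, 88.24 and 114.1 CPM in anti-CD40L libraries. The Stat4 groups overlapped (log2 fold change -0.09, 95% interval -0.32 to 0.14; edgeR, adjusted p = 0.643).

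Cish, on chromosome 9 from 107296659 to 107302784, encodes CIS, which is induced through STAT5 and dampens IL-2 receptor signals. It was at 44.08, 23.75 and 29.02 CPM in isotype and at 60.68, 50 and 59.81 CPM in anti-CD40L libraries. Every anti-CD40L library lay above every isotype library, and isotype replicate 1 was the highest of its group. The level rose from 32.29 ± 10.6 to 56.83 ± 5.93 CPM, 1.75-fold (log2 fold change 0.81, SE 0.18; edgeR, adjusted p = 0.0154). The call was lost without isotype replicate 2, isotype replicate 3 or anti-CD40L replicate 1 (edgeR, adjusted p = 0.0598, 0.0779 and 0.0605), with log2 fold changes of 0.63, 0.74 and 0.75. Without anti-CD40L replicate 3 it held, at 0.78 (edgeR, adjusted p = 0.0466).

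Socs3, which blocks signals of the IL-6 family through gp130, was at 15.32, 7.601 and 12.85 CPM in isotype and at 7.977, 4.868 and 8.025 CPM in anti-CD40L libraries. Isotype replicate 2 lay among the anti-CD40L values, so the groups overlapped. The log2 fold change was -0.79 with a 95% interval of -1.43 to -0.15 (edgeR, adjusted p = 0.11). The fit without the expression filter called it, at an adjusted p of 0.0271 (edgeR), and no other alternative did, with a highest adjusted p of 0.36. Socs1, which blocks Janus kinases downstream of interferon gamma and other cytokines, was at 19.8, 21.09 and 20.19 CPM in isotype and at 15.42, 16.73 and 18.92 CPM in anti-CD40L libraries. Those groups did not overlap, but the difference was not called (log2 fold change -0.27, 95% interval -0.60 to 0.07; edgeR, adjusted p = 0.289).

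Socs2, a regulator of growth hormone signals and a STAT5 target, was near the limit of detection. It had 9, 3 and 2 counts in isotype replicates 1 to 3, 9, 3 and 14 counts in anti-CD40L replicates 1 to 3, and 5, 12 and 8 counts in replicates 1 to 3 labelled KO. The ratio of anti-CD40L to isotype was 2.15 (26 against 14 counts, exact 95% interval 1.08 to 4.46), and the interval covers counting error only. Anti-CD40L replicate 3 held more than the other libraries of its group together, and without it the ratio was 1.24 (0.524 to 2.89), which is not a detectable difference at this depth. Without isotype replicate 1, which held 9 of the 14 isotype counts, the ratio was 3.81 (1.44 to 12.7). Fitted without the expression filter, Socs2 was not called (edgeR, adjusted p = 0.473).

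**Figure D2:**
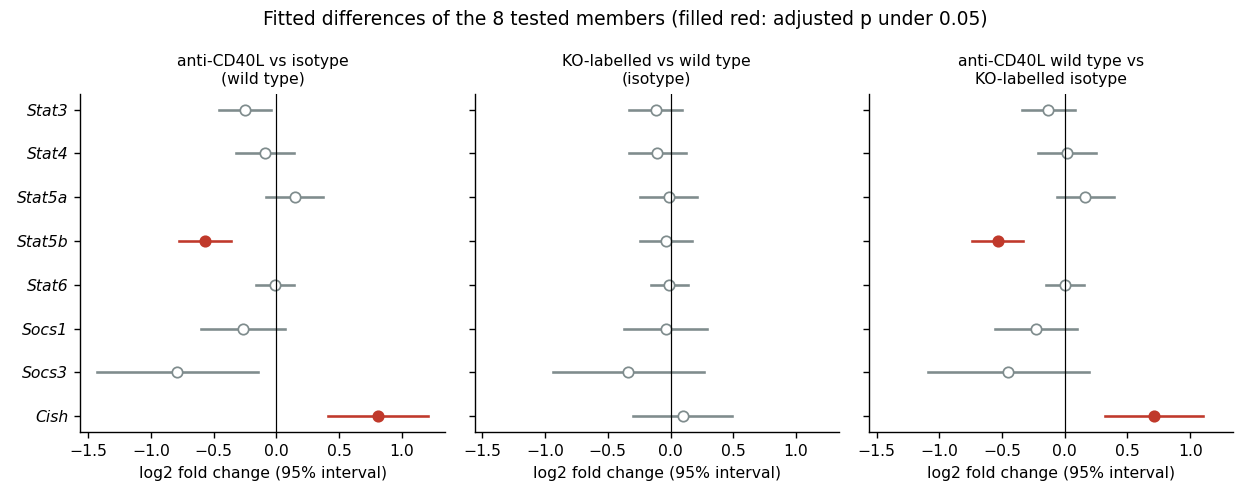
Fitted log2 fold changes of the 8 tested members with 95% intervals in the 3 comparisons, filled red where the adjusted p was under 0.05. Only Stat5b, at -0.57 and -0.53, and Cish, at 0.81 and 0.71, are filled, in the 2 comparisons that include the anti-CD40L libraries; none is filled in the middle panel.

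The second comparison asks whether loss of CD40L from T cells alters the family without the CD40L antibody. None of the 8 tested members was called, and edgeR called 0 of 11256 genes, so percent called over all genes is 0.0. Unadjusted p was under 0.05 for 0 members and for 649 genes (5.77%), while DESeq2 called 42 genes, edgeR without its filter 102 and limma-voom with quality weights 32, none of them a member. Every member's groups overlapped, beside 15.2% of all tested genes whose groups did not (7.61% higher and 7.62% lower). Stat5b was at 188.8, 174.1 and 159.4 CPM in replicates 1 to 3 labelled KO, inside the wild-type range but for 1 library, and its log2 fold change was -0.04 (95% interval -0.24 to 0.17; edgeR, adjusted p = 0.988). Cish was at 33.16, 36.74 and 33.85 CPM, between the wild-type values (log2 fold change 0.10, 95% interval -0.30 to 0.49; edgeR, adjusted p = 0.983). Stat6 was at 401.4, 388.2 and 374.4 CPM and had the narrowest interval, -0.16 to 0.14 (edgeR, adjusted p = 0.998).

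The other members spread as follows. Stat3 was at 195.8, 152.1 and 166.0 CPM, with log2 fold change -0.12 (95% interval -0.33 to 0.09), and Stat4 at 102.3, 104.4 and 98.04 CPM, with -0.11 (-0.33 to 0.12). Stat5a was at 147.6, 161.3 and 145.4 CPM, with -0.01 (-0.24 to 0.21), and Socs1 at 21.68, 21.3 and 16.61 CPM, with -0.04 (-0.37 to 0.29). Socs3 was at 10.84, 10.47 and 7.189 CPM, with -0.34, and its interval of -0.94 to 0.27 was the widest of the 8. Adjusted p ranged from 0.935 to 0.998 over the 8 tested members (edgeR quasi-likelihood test, Benjamini-Hochberg). Socs2 had a ratio of 1.41 (25 against 14 counts, exact 95% interval 0.703 to 2.93), and of 2.49 (0.937 to 8.34) without wild-type isotype replicate 1.

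Setting anti-CD40L wild-type cells against the libraries labelled KO compares the 2 differences above, since both were taken from the same wild-type isotype libraries. Antibody and genotype label differ together in this comparison. No cells labelled KO met the CD40L antibody, so the parts of antibody and genotype cannot be told apart in it. Stat5b and Cish differed, 2 of 8 tested members, beside 6.83% of all tested genes, with 1.79% called higher and 5.04% lower. They were also the members with an unadjusted p under 0.05, 2 of 8, which is near the 22.2% of all genes. Stat5b was lower on anti-CD40L by 0.53 in log2 (value -0.53, SE 0.10; edgeR, adjusted p = 0.00459, at most 0.0355 over the alternatives). Cish was 1.64-fold higher on anti-CD40L (log2 fold change 0.71, SE 0.18; edgeR, adjusted p = 0.0316). The groups did not overlap for Stat5b and Cish only, 2 of 8 members, a share near the 26.2% of all tested genes (10.3% higher and 15.9% lower). Cish was no longer called without anti-CD40L replicate 1 (edgeR, adjusted p = 0.0966) or replicate 3 (0.0838), and without replicate 1, 2 or 3 labelled KO (0.0969, 0.0925 and 0.0604). Stat3, Stat4, Stat5a, Stat6, Socs1 and Socs3 had log2 fold changes between -0.45, for Socs3, and 0.16, for Stat5a, and none was called (edgeR, adjusted p from 0.389 to 0.988). For Socs2 the ratio was 1.53 (26 against 25 counts, exact 95% interval 0.849 to 2.76), and without anti-CD40L replicate 3 it was 0.882 (0.404 to 1.82).

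The balance between members was read as ratios within each library, in which library scaling cancels. The count ratio of Stat5a to Stat5b was 0.905, 0.843 and 0.814 in wild-type isotype, 1.54, 1.21 and 1.5 on anti-CD40L, and 0.782, 0.926 and 0.913 in KO-labelled libraries. Stat5b thus had the higher count in all 6 isotype libraries and Stat5a in all 3 anti-CD40L libraries. This crossing holds for counts only, because the paired Stat5b transcript is longer (5062 against 3738 bases). Per kilobase, mean Stat5a stood above mean Stat5b in wild-type isotype (40.9 against 35.2) and KO-labelled libraries (40.5 against 34.4) too. On anti-CD40L the means were 45.3 and 23.7 CPM per kilobase. The mean ratio was 0.854 ± 0.0464, 1.42 ± 0.183 and 0.873 ± 0.0796 in the 3 groups. The exact permutation test on log2 ratios gave p = 0.1 (two-sided) for anti-CD40L against either isotype group, the smallest value that 3 against 3 libraries allow, and p = 0.8 between the isotype groups. This pair was chosen after its values were seen, and Stat5b alone already separated the same groups. The p for the ratio is therefore not separate support. Summed over both genes the STAT5 count was 377, 305 and 310 CPM in wild-type isotype and 298, 287 and 283 CPM on anti-CD40L, so the sum was lower in each anti-CD40L library too (exact permutation p = 0.1).

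A second reference point was Stat6, the steadiest member. The ratio of Stat5b to Stat6 was 0.458 ± 0.0602 in wild-type isotype, 0.31 ± 0.0244 on anti-CD40L and 0.448 ± 0.0223 in KO-labelled libraries. Among the inhibitors, the ratio of Cish to Socs3 was 2.88, 3.13 and 2.26 in wild-type isotype, 7.61, 10.3 and 7.45 on anti-CD40L, and 3.06, 3.51 and 4.71 in libraries labelled KO. All anti-CD40L libraries lay above the other 6. The ratio of Cish to Socs1 was 1.6 ± 0.567, 3.36 ± 0.505 and 1.76 ± 0.256 in the same order. For each of these 3 ratios the exact permutation p was 0.1 for anti-CD40L against either isotype group. The ratio of Stat3 to Stat5b also gave 0.1 in both (1.05 ± 0.0963, 1.31 ± 0.0518 and 0.984 ± 0.0958). The ratio of Stat5a to Stat6 did not separate the groups (0.393 ± 0.0726, 0.437 ± 0.0254 and 0.391 ± 0.0239), with an exact permutation p of 0.4 against wild-type isotype and 0.2 against the KO-labelled libraries. These pairs were chosen after their values were seen. Adjusted by Benjamini-Hochberg over the 21 permutation tests of this kind (7 readings, 3 comparisons), each p of 0.1 became 0.175.

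**Figure D3:**
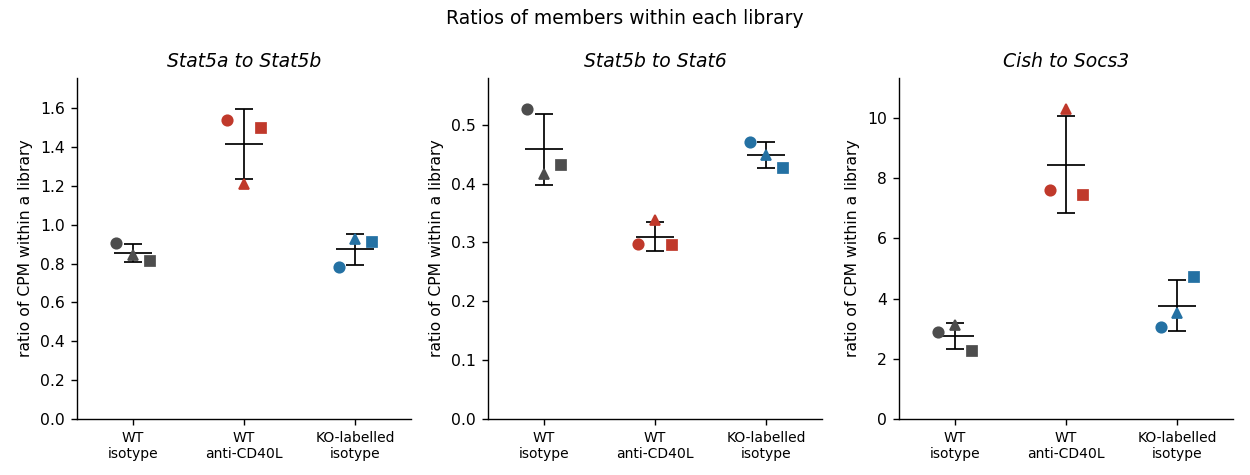
Ratio of CPM of 2 members within each library, by group (symbols as replicates 1 to 3, bar and whiskers as mean and SD, axes starting at 0). The 3 anti-CD40L libraries lie apart from the other 6 in each panel: 1.21 to 1.54 for Stat5a to Stat5b, 0.295 to 0.338 for Stat5b to Stat6 and 7.45 to 10.3 for Cish to Socs3.

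The rest of the pathway was read from lists of its ligands, receptors, kinases and targets, in the anti-CD40L comparison against wild-type isotype. These lists were chosen with earlier results of these data known. Their shares, here and in the next paragraphs, are therefore descriptions and not a test of the pathway. Among cytokine genes only 3 of 17 could be tested, and 2 rose, beside 2.91% of all genes called higher. Il2, the growth factor that signals through STAT5, rose 3.8-fold and Lif, which signals through gp130 and STAT3, rose 2.52-fold (edgeR, adjusted p = 0.00398 and 0.0242). The Il2 level was low and uneven on anti-CD40L, going from 4.99 ± 1.17 to 19.5 ± 11.1 CPM. Its log2 fold change was 1.93, and 1.41 to 2.22 with single libraries left out. The Lif call was lost without isotype replicate 1, isotype replicate 2 or anti-CD40L replicate 1 (edgeR, adjusted p = 0.102, 0.101 and 0.109), which left 1 cytokine called.

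Of 18 tested cytokine receptor chains, 7 fell and 1 rose, beside 6.46% and 2.91% of all genes, with a median log2 fold change of -0.27 against -0.01 for all genes. Il7r, the IL-7 receptor chain that activates STAT5 in resting cells, fell by 4.27 in log2, and Ifngr1, a chain of the interferon gamma receptor, fell by 1.99 (edgeR, adjusted p = 4.21e-07 and 6.97e-05). Il2ra, the alpha chain that gives the IL-2 receptor its high affinity, rose 1.33-fold (edgeR, adjusted p = 0.00702). Without isotype replicate 1 the count of chains called lower was 4, and without any other single library it was 5 to 8.

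Another list joined the Janus kinases, which phosphorylate STAT proteins, with genes listed as inhibitors, so its counts mix both kinds. Of its 14 tested genes, 1 fell and none rose, beside 6.46% and 2.91% of all genes, a share of lower calls near that of all genes. The one was Jak1, the kinase shared by most of these receptors, at 0.77 of its isotype level (log2 fold change -0.38, SE 0.08; edgeR, adjusted p = 0.0124), a call lost without isotype replicate 1 or 3 (edgeR, adjusted p = 0.0606 and 0.063). Of the 6 other STAT and SOCS genes, 1 fell and none rose, beside the same shares. Stat2, a transducer of type I interferon signals, went from 32.3 ± 2.47 to 20.8 ± 2.93 CPM (log2 fold change -0.65; edgeR, adjusted p = 0.0157), a call lost without isotype replicate 2, isotype replicate 3 or anti-CD40L replicate 1 (edgeR, adjusted p = 0.0705, 0.0562 and 0.0816).

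Target genes moved in both directions. Of 13 tested STAT5 targets (the members left out), 5 rose and 1 fell, beside 2.91% and 6.46% of all genes, with a median log2 fold change of 0.15. Bcl2l1, the survival gene for BCL-XL, rose 1.92-fold, and Tnfrsf4, the costimulatory receptor OX40, rose 1.36-fold (edgeR, adjusted p = 0.000537 and 0.00529). Mean Bcl2l1 was also higher in KO-labelled than in wild-type isotype libraries, without a call (126 against 86.2 CPM, log2 fold change 0.55; edgeR, adjusted p = 0.366). On anti-CD40L against the KO-labelled libraries Bcl2l1 was not called (0.39; edgeR, adjusted p = 0.0763). Tnfrsf4 was called there (0.53; edgeR, adjusted p = 0.00191). Ccnd3, a cyclin of the G1 phase, fell to 0.73 of its isotype level (edgeR, adjusted p = 0.0304), a call lost without isotype replicate 1, isotype replicate 2 or anti-CD40L replicate 1 (edgeR, adjusted p = 0.0674, 0.137 and 0.115). Without isotype replicate 2 the STAT5 targets called higher numbered 3. Il2ra belongs to this list and to the receptors.

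Of 13 tested STAT3 targets 1 rose and 1 fell, with a median of -0.18. That is near the 2.91% and 6.46% of all genes called higher and lower, which also stand beside the STAT4 and STAT6 target counts here. Hif1a, the hypoxia-inducible factor, rose 1.33-fold, and Bcl6, the regulator of follicular helper cells, fell to 0.575 of its isotype level (edgeR, adjusted p = 0.0145 and 0.0234). The Hif1a call was lost without isotype replicate 1, isotype replicate 2 or anti-CD40L replicate 1 (edgeR, adjusted p = 0.0647, 0.0644 and 0.0586). The Bcl6 groups overlapped, and its call was lost without isotype replicate 2, isotype replicate 3, anti-CD40L replicate 1 or anti-CD40L replicate 3 (edgeR, adjusted p = 0.111, 0.0703, 0.0915 and 0.0967). Only 3 of 7 STAT4 targets were tested, and Il18r1, the IL-18 receptor chain of Th1 cells, fell by 2.72 in log2 (edgeR, adjusted p = 0.000988), and without anti-CD40L replicate 3 the value was -3.36. Of 4 tested STAT6 targets 1 fell, the IL-4 receptor chain Il4ra, to 0.798 of its isotype level (edgeR, adjusted p = 0.0179), a call lost without isotype replicate 1, isotype replicate 3 or anti-CD40L replicate 1 (edgeR, adjusted p = 0.0878, 0.0762 and 0.0858). Against the KO-labelled libraries in place of wild-type isotype, the calls on anti-CD40L were these: 2 of 3 tested cytokines, 1 of 13 STAT5 targets and 1 of 13 STAT3 targets were higher, beside 1.79% of all genes. Lower were 5 of 18 receptor chains, 1 of 6 other STAT and SOCS genes, 1 of 13 STAT3 targets, 1 of 3 STAT4 targets and 1 of 4 STAT6 targets, beside 5.04% of all genes. Of these calls, Stat2 was lost in 10 of 18 alternatives, Lif in 9, Il4ra in 8, Il2 in 7 and Bcl6 in 1, that without anti-CD40L replicate 3. Between the isotype groups, 0 genes of these 8 lists were called by edgeR, with list medians from -0.05 to 0.18.

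**Figure D4:**
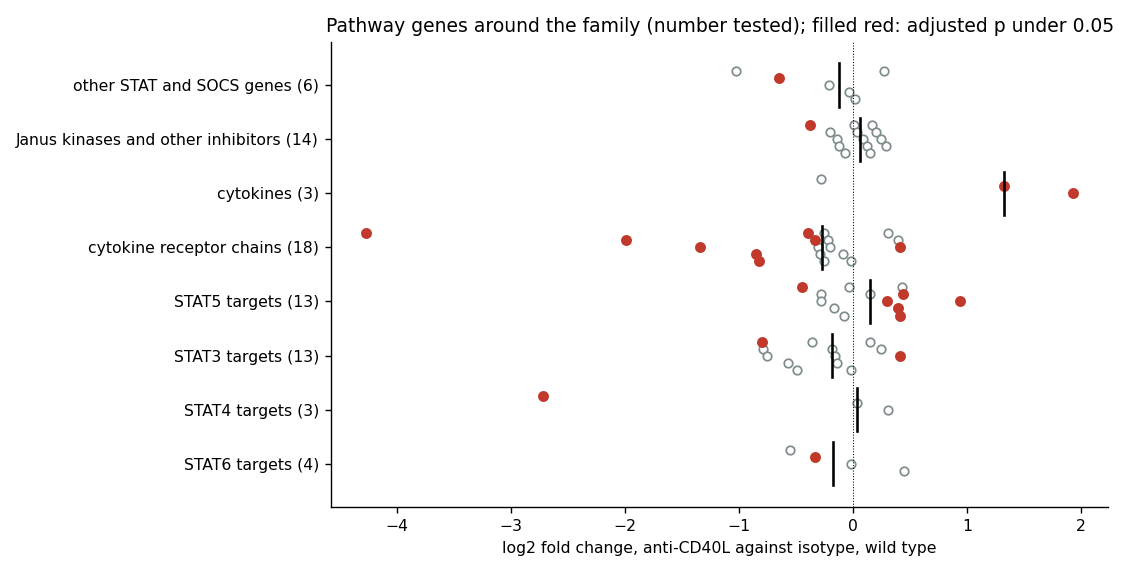
Log2 fold change of each tested pathway gene, anti-CD40L against isotype in wild-type cells, by list (points are genes, filled red where the adjusted p was under 0.05, vertical bars are list medians). Il7r lies farthest to the left, at -4.27, and Il2 farthest to the right, at 1.93; the medians run from -0.27 for receptors to 1.33 for the 3 cytokines.

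Genes whose pattern over the 9 libraries was most like a member were sought among 7981 tested genes of at least 10 CPM, for the 4 members of smallest p on anti-CD40L. The correlations describe these libraries, which share the groups and the scaling. Stat5b was followed most closely by Hp1bp3, a heterochromatin-binding protein gene (Pearson r = 0.996), and Pecam1, an adhesion receptor of naive T cells and endothelium (r = 0.994). Without anti-CD40L replicate 3 these were 0.995 and 0.997. Mean Pecam1 was 84.9 CPM (wild-type isotype), 31.6 CPM (anti-CD40L) and 77.0 CPM (KO-labelled), and mean Hp1bp3 225, 171 and 223 CPM. For Cish the closest were Ccdc58 (r = 0.977) and Hadh, a fatty acid oxidation enzyme gene (r = 0.952), which ranked 2 and 6 without that library. For Socs3 they were Trim25, a ubiquitin ligase gene, at 0.928, and Ptov1 at 0.921, out of 7982 genes. The Socs3 pair ranked 1 and 2 without anti-CD40L replicate 3. For Stat3 they were Apol7e at 0.93 and the noncoding Particl at 0.923, which ranked 8 and 9 without it. Between members, Stat5a with Cish gave 0.86 with and without anti-CD40L replicate 3, and Stat4 with Socs3 gave 0.79 with it and 0.91 without it. Stat5b with Cish gave -0.71 with it and -0.6 without it, and these 2 were called in opposite directions on anti-CD40L. Not all pairs of members are listed here, and Stat3 with Stat5b gave 0.72 with that library and 0.68 without it.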

How the data were processed

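RNA was sequenced in 9 libraries of splenic CD4+ T cells, 3 per group, and grouped by their titles, which also number the replicates. The deposited table holds expected counts for 42361 RefSeq transcripts, in steps of 0.5 and without normalization. The submitters' processing notes name CASAVA 1.8.2, HISAT2 2.1.0 and mm10. Which tool counted, and how it used strand and reads with several matches, remains not given in the sources used here. Symbols came from RefSeq (GRCm38.p6, the assembly of mm10) for 42203 rows and from GENCODE vM21 for 65, and 93 had none.

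The row of highest total was kept per gene (25160 genes) and rounded up. The second row of Cish totalled 0.8785 of the row kept, and the second rows of the other members with several rows totalled more. Genes passing filterByExpr of edgeR 4.0.16 (11256) were fitted in R 4.3.3 to all 9 libraries with TMM scaling, 1 term per group and the robust quasi-likelihood F test, adjusted by Benjamini-Hochberg over all tested genes at 0.05. Alternatives used DESeq2 1.42.0, limma 3.58.1, other edgeR settings and each library left out. The test was tried first on simulated counts. The members and lists were chosen with earlier results of these data known. The genes named beside the members were, per list, up to 2 per direction of smallest p among those called, plus the 2 genes most correlated with each of 4 members. Cd40lg and the pairs used for ratios lie outside that rule and were chosen after their values were seen. A planned comparison of protein sequences was not made, and the planned test assumed whole counts, in whose place the rounded values were used. Values of 1 pathway gene are not reported here.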

Additional observations from a re-analysis of the deposited data

How the results depend on the processing

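Over 432 refits of the 24 member results (8 members, 3 comparisons, 18 alternatives), 8 lost a call, all of Cish without single libraries, 1 gained one (Socs3 without the filter), and 31 crossed zero, all of them uncalled. The others kept their direction and their side of the threshold. The crossings outside left-out libraries were, with limma-voom and quality weights, Stat5a (0.04) and Socs1 (0.02) for KO against wild type and Stat4 (-0.07) for anti-CD40L against KO, and Stat6 in that last comparison (0.00 with DESeq2, RLE factors, no filter or 2 groups only). With single libraries left out, log2 fold changes ran from -0.16 to 0.01 for Stat4 and -0.03 to 0.01 for Stat6 (anti-CD40L against isotype), from -0.08 to 0.12 for Stat5a, -0.10 to 0.05 for Stat5b, -0.03 to 0.02 for Stat6, -0.11 to 0.08 for Socs1 and -0.09 to 0.39 for Cish (KO against wild type), and from -0.05 to 0.12 for Stat4 and -0.03 to 0.03 for Stat6 (anti-CD40L against KO). The causes were not tested.

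Over all genes, anti-CD40L against isotype gave 1055 calls, 1592 with DESeq2, 1698 without the filter and 486 to 1342 with single libraries left out (under 1055 by over 1.5 times without wild-type isotype replicate 1, 2 or 3 or anti-CD40L replicate 1). KO against wild type gave 0, 42 with DESeq2, 102 without the filter, 32 with quality weights, 3 with 2 groups only and 0 to 2 with libraries left out. Anti-CD40L against KO gave 769, 1173 with DESeq2, 1305 without the filter, 1464 with quality weights, 481 with 2 groups only and 346 to 1022 with libraries left out (lowest without anti-CD40L replicate 1 and replicates 1 and 2 labelled KO). Members called numbered 2 and 1 to 2 with libraries left out in both anti-CD40L comparisons, and 0 throughout for KO against wild type. Whether the numbers in the titles pair the libraries remains not given in the sources used here. Correlations of same-numbered deviations ran from -0.149 to 0.18, and 1 of 9 exceeded 0.1. For anti-CD40L against isotype they were 0.18, 0.084 and 0.078, and those of differently numbered libraries ran from -0.106 to 0.013. These values do not settle whether the wild-type libraries are paired. With the replicate block, calls were 954, 0 and 664 and members called 2, 0 and 2.

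Depth limits Socs2 in every comparison, and the 14 untested cytokines among 17 could not be compared at all.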
